A study of Mus musculus with 2 samples.

Results

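Fc gamma receptors bind the constant part of IgG antibodies on the surface of myeloid cells. The mouse has the activating receptors Fcgr1 (CD64, which binds monomeric IgG with high affinity), Fcgr3 (CD16) and Fcgr4 (CD16-2), which need the signaling chain Fcer1g, and 1 inhibitory receptor, Fcgr2b (CD32B). These 5 genes and Fcrls, a receptor-like gene of the same superfamily that marks microglia and is not known to bind IgG, were read from the count matrices by gene symbol, as 6 of 31053 genes. Fcer1g carries an immunoreceptor tyrosine-based activation motif (ITAM), which Src family kinases and Syk read when bound antibody clusters the receptors, and phagocytosis and the oxidative burst follow. Fcgr2b carries the inhibitory counterpart of this motif, which recruits the phosphatase SHIP1, so the balance of activating to inhibitory receptors sets how a myeloid cell answers to IgG. Interferon-gamma is a classical inducer of Fcgr1, and microglia carry several of these receptors at rest.

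The cells came from brain tumors of GL261, a mouse glioma cell line, of which 100000 cells were injected into the brains of male C57BL/6 mice aged 8 to 12 weeks. WT mice were compared with CD169-DTR mice, in which the diphtheria toxin (DT) receptor replaces 1 copy of Siglec1, the gene of CD169, so that cells expressing CD169 can be killed by DT. Both groups received 40 ng/g DT on day -1 and day 4 of tumor injection, and on day 10 live CD45.2-positive cells were sorted from 3 pooled mice per group, with 1 library of transcript 3′ ends made from each pool. With 1 library per group the spread between mice is unknown and no test was made. Every interval given is a 95% interval that covers counting error only.

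Barcodes counted as cells if they held 1000 or more unique molecular identifiers (UMIs), of which no more than 17% were mitochondrial. The median depth was 7776 UMIs over 10107 WT cells and 8099.5 UMIs over 7604 CD169-DTR cells. Of these, 9558 and 7188 held a UMI of at least 1 of the 6 genes. The libraries shared 21 cell barcodes. Cells were clustered together after the libraries had been aligned to each other (integrated), so cluster shares depend on that alignment. Clusters were named from marker genes. Microglia, macrophages and the other classes are thus marker-based ("microglia-like", "macrophage-like") and not sorted populations. Microglia were 46.7% of WT and 74.2% of CD169-DTR immune cells, and macrophages 26.2% and 11.7%. Free RNA was estimated from myeloid genes in lymphocytes at a median of 113 UMIs per WT droplet and 73.5 per CD169-DTR droplet. The means over the same lymphocytes were 1610 and 809 UMIs, so some of them held far more than the median. The level of each gene in T cells, in which these receptors are generally held to be absent, is therefore given as its background.

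Fcgr2b, Fcgr4, Fcgr3 and Fcer1g lie within 275.749 kb of chromosome 1 (build mm10, 170958617 to 171234365), while Fcgr1 (chromosome 3, 96282909 to 96293969) and Fcrls (chromosome 3, 87250758 to 87263738) lie apart from them. Fcgr2b and Fcgr3 are close relatives, but the annotated transcripts shared 50-base windows only outside the last 600 bases, where reads of a 3′ library fall, so their UMIs could be told apart. An antisense gene, Gm38204, overlaps Fcgr2b and is counted separately. The 2 receptors with the largest differences between myeloid states, Fcgr1 and Fcgr4, have the following 250 bases before their start in RefSeq (GRCm38.p6), at chr3:96293970-96294219 on the minus strand for Fcgr1 and at chr1:171018676-171018925 on the plus strand for Fcgr4. Capitals mark matches, on either strand, to the gamma-activated sequence TTCNNNGAA, to a core of the interferon-stimulated response element (GAAA, any 2 bases, GAAA) and to the PU.1 core GAGGAA, which reads TTCCTC on the other strand.
Fcgr1: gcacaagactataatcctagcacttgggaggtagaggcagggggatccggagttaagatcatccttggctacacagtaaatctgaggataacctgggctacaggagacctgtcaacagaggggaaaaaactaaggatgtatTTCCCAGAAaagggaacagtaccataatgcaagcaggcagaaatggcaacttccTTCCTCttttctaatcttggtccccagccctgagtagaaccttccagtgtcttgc
Fcgr4: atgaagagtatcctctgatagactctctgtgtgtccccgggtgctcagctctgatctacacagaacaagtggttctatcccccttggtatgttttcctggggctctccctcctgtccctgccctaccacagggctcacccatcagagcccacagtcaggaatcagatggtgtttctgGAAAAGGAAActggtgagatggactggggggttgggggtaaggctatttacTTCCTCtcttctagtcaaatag
Fcgr1 has a gamma-activated sequence 109 bases before its start and a PU.1 core, and Fcgr4 has an interferon-stimulated response element core 73 bases before its start and a PU.1 core. Of the other members, Fcgr3 and Fcrls hold a PU.1 core in this window, and Fcgr2b and Fcer1g hold none of the 3 motifs. Of 32851 promoters of the same length, 7.02% hold the gamma-activated sequence, 2.98% the interferon element core and 23.3% the PU.1 core. These matches describe letters only.

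Fcgr1, the high-affinity receptor, was highest in microglia and macrophages. Levels are UMIs per 1000000 UMIs of the class (CPM). Since a UMI counts 1 molecule by its 3′ end, transcript length does not enter a comparison of genes. Whether the genes were captured equally well was not tested, so ratios between genes are ratios of UMIs. In microglia Fcgr1 had 842 CPM (833 to 852) in WT and 702 CPM (694 to 710) in CD169-DTR, and in macrophages 804 CPM (791 to 817) and 541 CPM (526 to 555). Dendritic cells (DC) came next with 427 and 329 CPM, and granulocytes had 237 and 116 CPM. T cells had 78.7 and 43.0 CPM, and NK cells 114 and 46.6 CPM. The order microglia, macrophages, DC held in both libraries without overlap of the counting intervals, and B cells and granulocytes overlapped each other in both.

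Within both large classes Fcgr1 followed cell state. Among macrophages it was highest in the cluster led by Ly6c2 and Plac8, genes of inflammatory monocytes, at 1274 CPM in WT and 1161 CPM in CD169-DTR, against 564 and 441 CPM in the cluster led by Gpnmb and Fabp5, genes of lipid-laden tumor macrophages, which also held 4 of 8 markers of border-associated macrophages. The log2 ratio of these clusters was 1.18 in WT and 1.40 in CD169-DTR. It was lowest in the cluster led by Ear2 and Treml4, genes of patrolling monocytes, with 163 and 154 CPM. Among microglia it was highest in the cluster led by Cxcl10 and Iigp1, genes induced by interferon, with 1257 and 1192 CPM, and lowest in the cluster led by Il1a and Atf3, with 483 and 421 CPM. The homeostatic microglia led by P2ry12 had 752 and 695 CPM. The cluster with Ly6c2 and the one with Cxcl10 held 7 and 6 of 8 genes of an interferon-induced list at 50% or more of the level of the highest cluster, and the other microglia and macrophage clusters held at most 1, so the highest Fcgr1 of each class was in the cluster with most of that list.

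**Figure D1:**
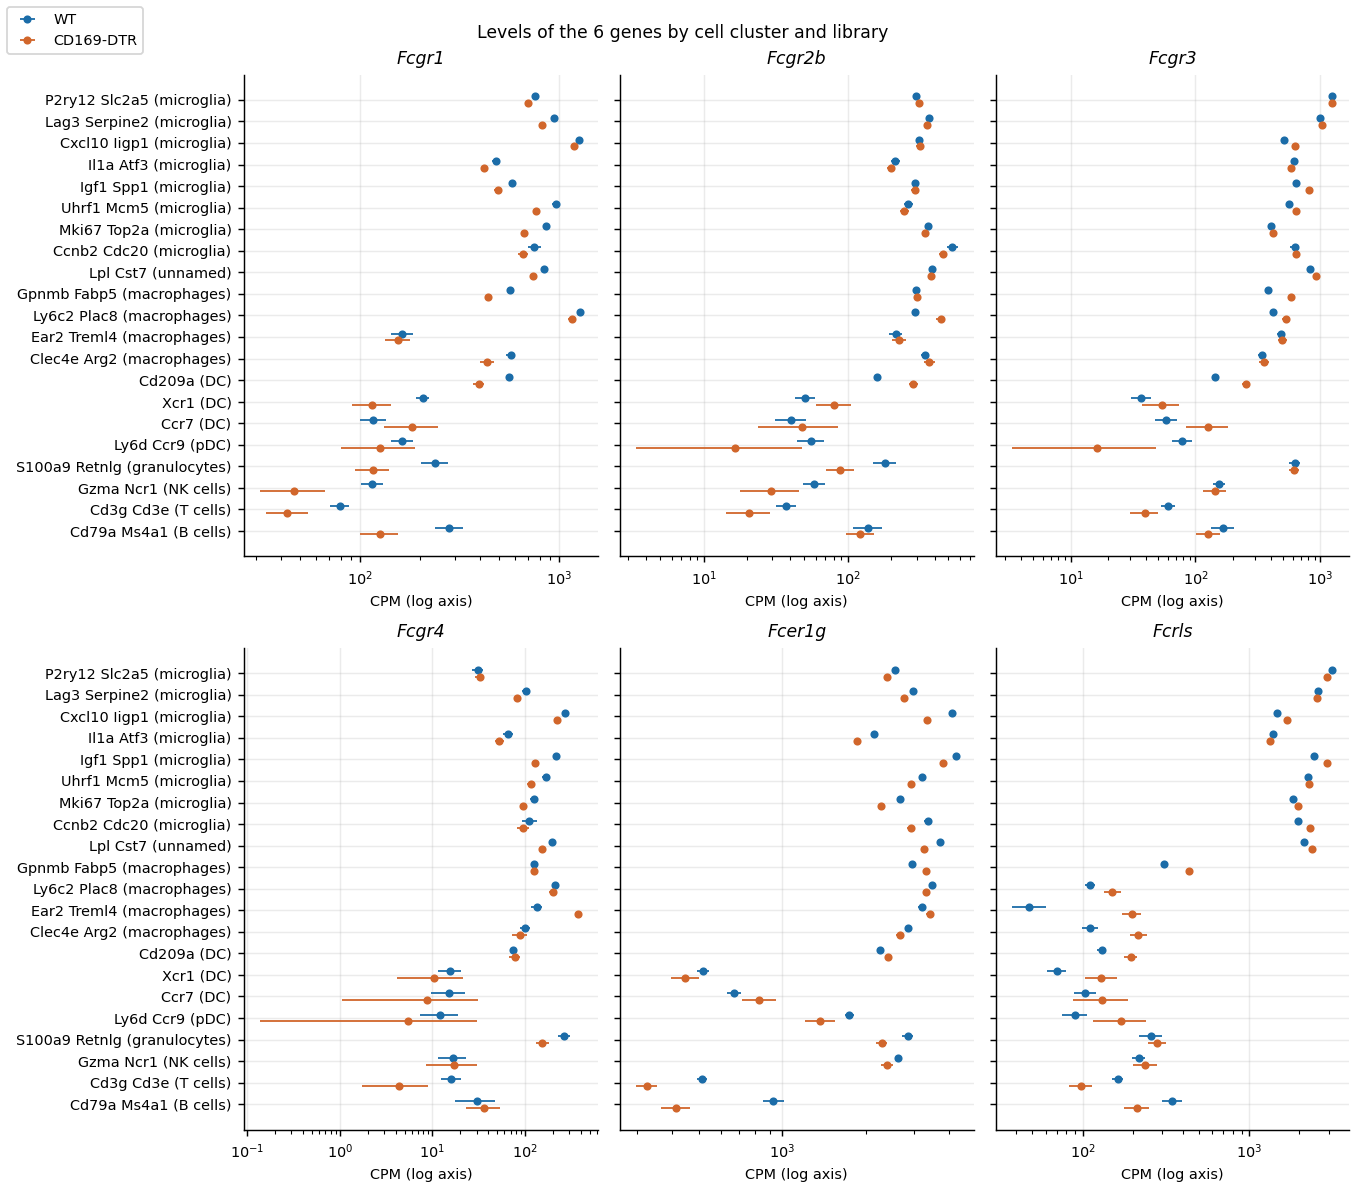
Level of each of the 6 genes (CPM, log axis, 1 panel per gene) in 21 clusters, with WT and CD169-DTR as separate points and 95% counting intervals as bars. Fcgr1 peaks in the Ly6c2 macrophages and the Cxcl10 microglia, Fcgr3 and Fcrls in homeostatic microglia, and Fcer1g is above 1000 CPM in microglia, macrophages, granulocytes and NK cells.

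Fcgr3, the low-affinity activating receptor that also marks NK cells and neutrophils, was highest in microglia. From homeostatic to Cxcl10 microglia it ran against Fcgr1 and Fcgr4. It had 756 CPM in WT and 826 CPM in CD169-DTR microglia, 621 and 614 CPM in granulocytes and 398 and 525 CPM in macrophages, and these 3 classes did not overlap in either library. Homeostatic microglia had the highest level of any cluster, with 1226 and 1246 CPM, and the Cxcl10 cluster had 507 and 629 CPM. The log2 ratio of Cxcl10 over homeostatic microglia was -1.27 in WT and -0.99 in CD169-DTR for Fcgr3, and 0.74 and 0.78 for Fcgr1. In the Il1a Atf3 cluster both were below homeostatic microglia, Fcgr3 by -1.01 and -1.10 and Fcgr1 by -0.64 and -0.72. Both were also lower in the cluster led by Igf1 and Spp1, Fcgr3 by -0.94 and -0.61 and Fcgr1 by -0.37 and -0.50. In NK cells Fcgr3 had 155 and 143 CPM against 60.3 and 39.3 CPM in T cells. After thinning to 2500 UMIs per cell, a UMI of Fcgr3 was found in 24.7% of NK cells in WT and 24.1% in CD169-DTR, against 8.37% and 6.60% of T cells, at median depths before thinning of 5566 and 6567 UMIs for NK cells and 6517 and 6655 UMIs for T cells. Unthinned, these shares were 39.9% and 44.2% of NK cells and 16.3% and 12.4% of T cells. Thinning left out 33 and 3 NK cells and 36 and 6 T cells.

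Fcgr4, which binds IgG2 subclasses, was the least abundant of the activating receptors in microglia and macrophages and differed most between microglial states. It had 266 CPM (228 to 308) in WT granulocytes, 155 CPM (149 to 160) in WT macrophages and 129 CPM (125 to 133) in WT microglia. In CD169-DTR, macrophages with 168 CPM (160 to 176) and granulocytes with 154 CPM (130 to 182) overlapped, and microglia had 88.1 CPM (85.4 to 90.9). T cells had 15.99 and 4.37 CPM, and NK cells 16.5 and 17.1 CPM. Homeostatic microglia had little, with 31.0 CPM in WT and 32.3 CPM in CD169-DTR, while the Cxcl10 cluster had 268 and 223 CPM. The log2 ratio of these clusters was 3.11 (2.91 to 3.32) in WT and, in CD169-DTR, 2.78 (2.61 to 2.96). Fcgr4 was also higher than in homeostatic microglia in the cluster led by Igf1 and Spp1, by a log2 ratio of 2.80 and 1.99, and in the cluster led by Lpl and Cst7, by 2.66 and 2.25. The Lpl Cst7 cluster, with 666 WT and 698 CD169-DTR cells and 9 of 10 microglial markers, was left unnamed and stands outside the microglia. Among macrophages the Ly6c2 cluster had 209 and 200 CPM and the Gpnmb cluster 126 CPM in both libraries.

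Fcgr2b, the inhibitory receptor, had the narrowest range of the 4 receptors over the microglia and macrophage clusters, from 198 to 532 CPM, against 154 to 1274 CPM for Fcgr1, 340 to 1246 CPM for Fcgr3 and 31.0 to 376 CPM for Fcgr4. Microglia had 316 and 307 CPM and macrophages 296 and 328 CPM, so that microglia were higher in WT and macrophages in CD169-DTR. From homeostatic to Cxcl10 microglia it moved by a log2 ratio of 0.07 in WT and 0.03 in CD169-DTR. The highest microglial level, 532 and 459 CPM, was in the mitotic cluster led by Ccnb2, and the lowest, 214 and 198 CPM, in the Il1a Atf3 cluster. B cells, in which Fcgr2b is the only Fc gamma receptor, had 137 and 122 CPM, against 37.3 and 20.6 CPM in T cells. B cells also had 280 CPM of Fcgr1 in WT and 125 CPM in CD169-DTR, and a list of 12 macrophage markers summed to 3541 and 916 CPM in them, with none of 12 lower in WT and 2 at 0 in CD169-DTR. The part of those transcripts in the B cell values was not tested.

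Fcer1g, the shared signaling chain, was the most abundant member in every class. Macrophages had 3153 and 3232 CPM, microglia 3093 and 2640 CPM, granulocytes 2840 and 2283 CPM and NK cells, in which it serves CD16, 2628 and 2395 CPM. T cells had 513 and 324 CPM, which was 1.27 and 1.79 times the UMIs calculated from free RNA. For the other 5 members it was 0.82 to 1.16 times. The calculation took the mean content of microglial genes in T cells, not the median per droplet given above. A UMI was found in 99.3% and 98.9% of thinned microglia and 98.8% and 99.02% of thinned macrophages, against 39.1% and 23.6% of thinned T cells, and unthinned in 99.7% and 99.8% of microglia and 98.2% and 99.6% of macrophages. Its highest microglial clusters were the Igf1 Spp1 cluster with 4236 and 3817 CPM and the Cxcl10 cluster with 4104 and 3333 CPM, and the homeostatic cluster had 2559 and 2390 CPM.

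Fcrls separated microglia from all other classes. Microglia had 2237 CPM in WT and 2318 CPM in CD169-DTR, and homeostatic microglia 3150 and 2930 CPM. Macrophages had 182 CPM in WT and 319 CPM in CD169-DTR, a log2 ratio over microglia of -3.62 and -2.86. T cells had 162 and 97.9 CPM. In thinned cells, 13.5% of WT macrophages held a UMI of Fcrls, against 12.4% of WT T cells, and 25.6% of CD169-DTR macrophages, against 9.43% of CD169-DTR T cells. Over the class, the WT share was thus at the level of the background, but the clusters differed. The share was 23.8% (21.0 to 26.9) in the WT Gpnmb cluster, above that of WT T cells (9.51 to 15.9), and 6.52% in the WT Ly6c2 cluster. Unthinned, the shares were 22.6% and 43.1% of macrophages and 21.5% and 17.9% of T cells, at median depths of 7220.5 and 11822 UMIs in macrophages. Thinning left out 189 and 24 macrophages.

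Across 46 profiles, each a cluster of at least 50 cells in 1 library, the genes most like each member were named by Pearson correlation of log2(CPM + 10), as a description of profiles that share libraries, depth and cell classes. Fcrls was like Olfml3 (0.984) and C1qc (0.978). Fcer1g was most like Tyrobp (0.967), the other ITAM chain of myeloid cells. Fcgr3 was most like Sirpa (0.967) and Itgam (0.946), and Fcgr1 was most like Ctss (0.943) and P2ry6 (0.940). Fcgr2b was most like Cd68 (0.936) and Ctss (0.936), and Fcgr4 was most like Igsf6 (0.870). Among the members, Fcgr1 and Fcgr2b were the most alike pair (0.92) and Fcgr4 and Fcrls the least (0.41).

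The comparison of WT with CD169-DTR asks whether the cells left after CD169-directed DT treatment differ in these receptors. In macrophages Fcgr1 was the member that was higher in WT by more than a log2 ratio of 0.5, the size used here to call a difference. It had 804 CPM in WT and 541 CPM in CD169-DTR, a log2 ratio of 0.57 (0.53 to 0.62), and a UMI of Fcgr1 was found in 72.4% of 2087 thinned WT and 57.5% of 711 thinned CD169-DTR macrophages, against 10.2% and 5.66% of thinned T cells. Unthinned, 86.9% and 83.0% of macrophages held one. Fcgr3 was the opposite, with 398 and 525 CPM and a log2 ratio of -0.40 (-0.45 to -0.35), which was -0.17 in cells of 5000 to 10000 UMIs. Fcgr2b (-0.15) and Fcer1g (-0.04) were closer to even, and so was Fcgr4 over all macrophages (-0.12), although it was past the size of a call in cells of 5000 to 10000 UMIs (-0.72) and with equal weight per cell (-0.56). Fcrls was lower in WT, with a log2 ratio of -0.81 (-0.88 to -0.74). So 1 member, Fcgr1, was called higher and 1, Fcrls, lower. Of 9331 genes that reached 100 UMIs over both libraries in this class, 7.61% were called higher and 6.92% lower, and the median log2 ratio was -0.05 over those genes and -0.13 over the 6 members.

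The make-up of the macrophages also differed between the libraries. The Ly6c2 cluster, which had the most Fcgr1, was 39.4% of WT and 25.2% of CD169-DTR macrophages, the Ear2 Treml4 cluster, which had the least, was 8.17% and 19.9%, the Gpnmb cluster 42.3% and 41.5%, and a cluster led by Clec4e and Arg2 10.2% and 13.5%. Within clusters the log2 ratio of Fcgr1 was 0.36 in the Gpnmb cluster, 0.13 (0.07 to 0.20) in the Ly6c2 cluster, 0.08 in the Ear2 cluster and 0.39 in the Clec4e cluster. With the same cluster weights in both libraries the log2 ratio of Fcgr1 over all macrophages was 0.23, so the difference no longer reached 0.5. With those weights Fcgr3 was at -0.39 and Fcgr2b at -0.24, and Fcrls stayed past 0.5 at -0.59. Fcgr3 was lower in WT in the Gpnmb cluster, by a log2 ratio of -0.59 (-0.67 to -0.52), and in the Ly6c2 cluster, by -0.34, and near even in the Ear2 cluster (-0.03, -0.19 to 0.12) and the Clec4e cluster (-0.05, -0.21 to 0.11). Fcgr2b was lower in the WT Ly6c2 cluster, with 294 against 440 CPM and a log2 ratio of -0.58 (-0.70 to -0.47), and nearer to even in the Gpnmb (-0.02), Ear2 (-0.08) and Clec4e (-0.10) clusters.

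Depth and microglial transcripts differed between the same cells. CD169-DTR macrophages had a median of 11822 UMIs and WT macrophages 7220.5, and in the Gpnmb cluster the medians were 16961 and 4987.5. A list of 10 microglial markers summed to 2035 CPM in WT and 2415 CPM in CD169-DTR macrophages, with 5 of the 10 lower in WT and none at 0, and to 1518 and 2194 CPM in the Ly6c2 cluster, with 9 of 10 lower in WT. In the Gpnmb cluster the sum was 2929 and 2750 CPM, with 3 of 10 lower in WT, and in the Clec4e cluster 1629 and 1608 CPM. In macrophages without a UMI of 6 microglial genes, the log2 ratio of Fcrls was -0.07, so its difference was in cells that also held other microglial transcripts.

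**Figure D2:**
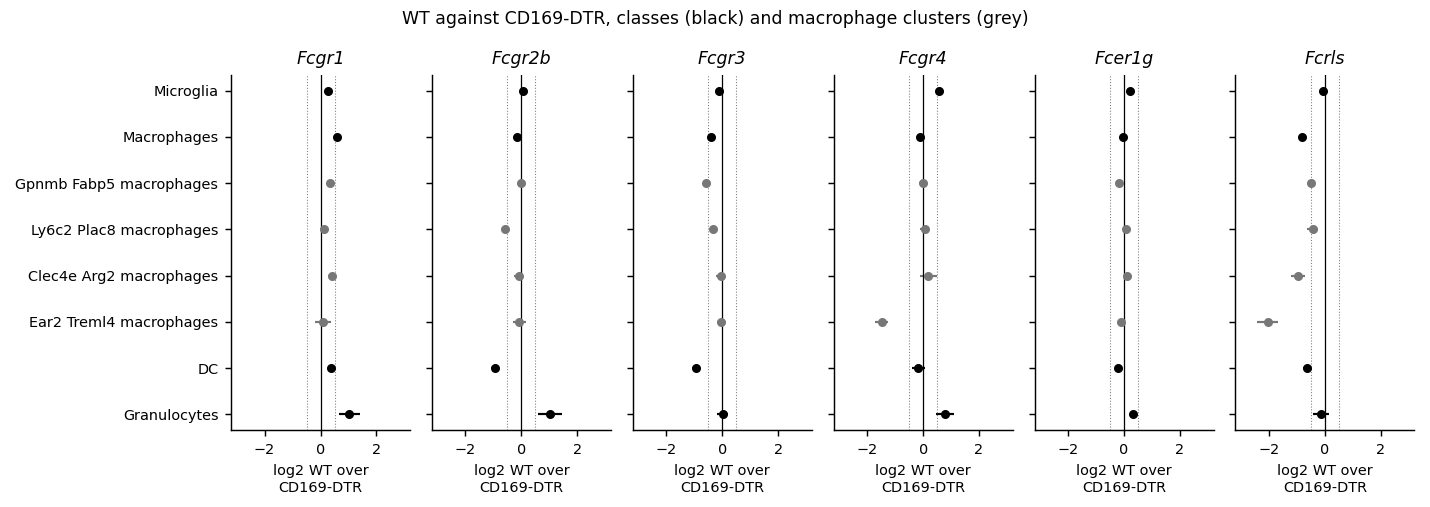
Log2 ratio of WT over CD169-DTR of each member in 4 myeloid classes (black) and in the macrophage clusters (grey), with 95% counting intervals as bars and dotted lines at -0.5 and 0.5. Fcgr1 lies above 0 in all 4 classes, and Fcrls lies below 0 in all 4.

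Fcgr4 split the Ear2 Treml4 cluster. In this cluster it had 135 CPM in WT and 376 CPM in CD169-DTR, a log2 ratio of -1.48 (-1.72 to -1.25). At a finer cluster resolution, a part with 99 WT and 94 CD169-DTR cells had the higher Ear2, Treml4 and Ace (the Ace part). The other part, with 87 and 52 cells, had the higher Ly6c2 and F13a1, genes of classical monocytes (the F13a1 part). In the Ace part Fcgr4 had 289 CPM from 188 UMIs in WT and 753 CPM from 464 UMIs in CD169-DTR, a log2 ratio of -1.38 (-1.63 to -1.13), and in the F13a1 part 22.3 and 25.7 CPM. So most of the Fcgr4 of this cluster was in the Ace part in both libraries. Treml4 (434 and 451 CPM), Ace (663 and 686 CPM) and Fcgr3 (341 and 337 CPM) were near even in the Ace part. Ear2 was not: it had 418 and 649 CPM, a log2 ratio of -0.63 (-0.86 to -0.41), in the direction of Fcgr4. The microglial gene P2ry12 (32.3 and 185 CPM) moved with Fcgr4 there, as did Fcrls (41.5 and 260 CPM), and Ly6c2 (154 and 29.2 CPM) moved the other way. Over the whole Ear2 cluster the 10 microglial markers summed to 1065 CPM in WT and 2225 CPM in CD169-DTR, with all 10 lower in WT, and their part in the Fcgr4 difference was not tested. Without the Ear2 cluster, the log2 ratio of Fcgr4 over macrophages was 0.20.

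In microglia the members were nearer to even, and Fcgr4 was the one called higher in WT. It had 129 CPM in WT and 88.1 CPM in CD169-DTR, a log2 ratio of 0.55 (0.49 to 0.61), with a UMI in 21.2% and 14.6% of thinned microglia and in 2.04% and 0.472% of thinned T cells. Unthinned, the microglial shares were 43.8% and 35.5%, and thinning left out 114 and 81 microglia. Fcgr1 (0.26) and Fcer1g (0.23) were also higher in WT, Fcgr2b was at 0.04, Fcrls at -0.05, and Fcgr3 was lower at -0.13 (-0.15 to -0.10). So 1 member was called higher and 0 lower, and of 11435 genes tested in microglia 2.23% were called higher and 1.99% lower, with a median log2 ratio of -0.04 against 0.13 over the members. The Cxcl10 cluster was 13.01% of WT and 8.94% of CD169-DTR microglia, and the homeostatic cluster 32.0% and 39.98%. Within clusters the log2 ratio of Fcgr4 was 0.75 (0.59 to 0.91) in the Igf1 Spp1 cluster, 0.53 in a replicating cluster led by Uhrf1 and Mcm5, 0.26 in the Cxcl10 cluster and -0.06 (-0.31 to 0.18) in homeostatic microglia. With the same cluster weights in both libraries it was 0.37 over all microglia, under the size of a call. The 12 macrophage markers summed to 374 CPM in WT and 229 CPM in CD169-DTR microglia, with 2 of 12 lower in WT and none at 0, and their part in the difference was not tested.

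DC and granulocytes had fewer cells, 1151 and 240 DC and 169 and 194 granulocytes, and larger differences. In DC Fcgr2b had 120 CPM in WT and 233 CPM in CD169-DTR, a log2 ratio of -0.96 (-1.08 to -0.84). Fcgr3 had 109 and 209 CPM, a log2 ratio of -0.95 (-1.08 to -0.82), and Fcrls was at -0.66. Fcgr1 was higher in WT at 0.38 (0.29 to 0.47). So 3 members were called lower and 0 higher in DC, where 7.88% of genes were called higher and 7.58% lower, with a median of -0.01 over 8335 genes and -0.44 over the members. Within the DC cluster led by Cd209a, the log2 ratios of Fcgr2b and Fcgr3 were -0.84 and -0.83. The 10 microglial markers summed to 1366 CPM in WT and 1965 CPM in CD169-DTR DC, all 10 lower in WT and none at 0, and their part was not tested.

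In granulocytes Fcgr1 (1.04, 0.67 to 1.41), Fcgr2b (1.02, 0.60 to 1.45) and Fcgr4 (0.78, 0.45 to 1.11) were called higher in WT as log2 ratios, and Fcgr3, their most abundant receptor, was at 0.02 (-0.17 to 0.20). So 3 members were called higher and 0 lower, with a median of 0.55 over the members and -0.05 over 2006 genes, of which 14.8% were called higher and 14.8% lower. The Fcgr1 values rest on 156 WT and 104 CD169-DTR UMIs. Thinning left 122 and 174 granulocytes, of which 30.3% and 12.1% held a UMI of Fcgr1 and 42.6% and 34.5% a UMI of Fcgr4, and it left out 47 and 20. Unthinned, the shares were 34.9% and 13.9% for Fcgr1 and 46.7% and 41.2% for Fcgr4, at median depths of 2924 and 3629 UMIs. The thinned T cell shares were 10.2% and 5.66% for Fcgr1. The 12 macrophage markers summed to 4304 CPM in WT and 3133 CPM in CD169-DTR granulocytes, with 2 of 12 lower in WT and 2 at 0 in CD169-DTR, and the 10 microglial markers to 3025 and 3836 CPM, with all 10 lower in WT. The background of Fcgr1 in T cells, 78.7 and 43.0 CPM, was higher in WT as well, and the part of these transcripts in the granulocyte values was not tested.

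The balance of activating to inhibitory receptors was taken as the UMIs of Fcgr1, Fcgr3 and Fcgr4 per UMI of Fcgr2b. Macrophages had 4.59 (4.45 to 4.72) in WT and, in CD169-DTR, 3.77 (3.62 to 3.92), a log2 ratio of 0.28 (0.21 to 0.35). Microglia had 5.47 and 5.26, a log2 ratio of 0.06 (0.02 to 0.10). DC had 4.91 and 2.57, a log2 ratio of 0.93, and granulocytes 6.22 and 9.95, a log2 ratio of -0.68 (-1.11 to -0.25). Macrophages were below microglia in both libraries, by a log2 ratio of -0.25 (-0.31 to -0.20) in WT and, in CD169-DTR, -0.48 (-0.54 to -0.42). So WT was above CD169-DTR in macrophages, microglia and DC, and below it in granulocytes.

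**Figure D3:**
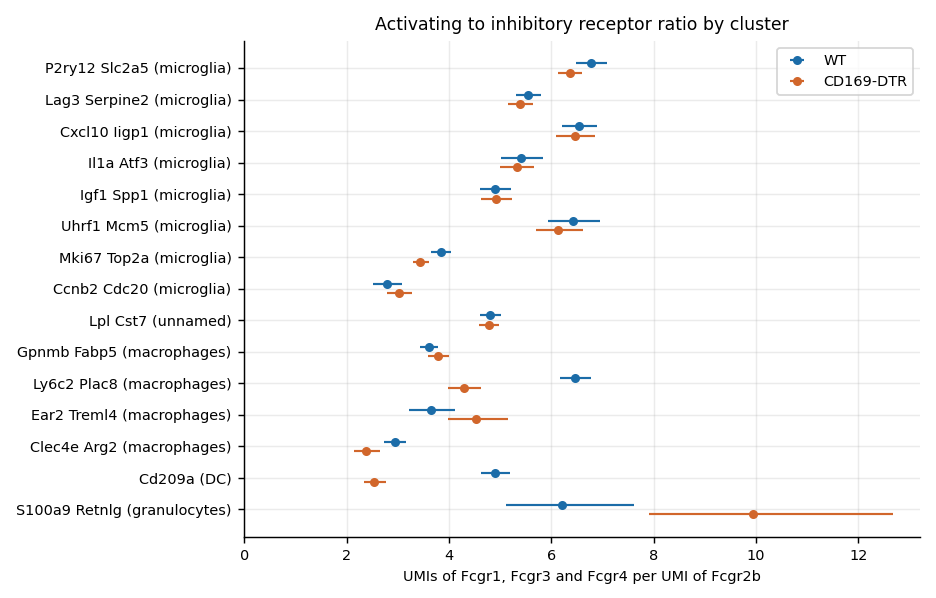
UMIs of the activating receptors Fcgr1, Fcgr3 and Fcgr4 per UMI of the inhibitory Fcgr2b in 15 clusters, with WT and CD169-DTR as separate points and 95% counting intervals. Homeostatic and Cxcl10 microglia lie above 6 in both libraries, and the Ly6c2 macrophages lie at 6.47 in WT and 4.29 in CD169-DTR.

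Among clusters the ratio was 6.78 and 6.36 in homeostatic microglia and 6.54 and 6.45 in Cxcl10 microglia, although Fcgr3 led the first and Fcgr1 the second. It was lower in the mitotic clusters, with 3.84 and 3.44 in the one led by Mki67 and 2.79 and 3.03 in the one led by Ccnb2. The Ly6c2 macrophages had 6.47 in WT and 4.29 in CD169-DTR, a log2 ratio of 0.59 (0.47 to 0.72), with Fcgr2b as the receptor that differed most. The Gpnmb macrophages had 3.61 and 3.79, and the Clec4e Arg2 macrophages 2.94 and 2.38. The Ear2 macrophages had 3.64 and 4.52, a log2 ratio of -0.31 (-0.57 to -0.06), below CD169-DTR where the class as a whole was above it.

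**Figure D4:**
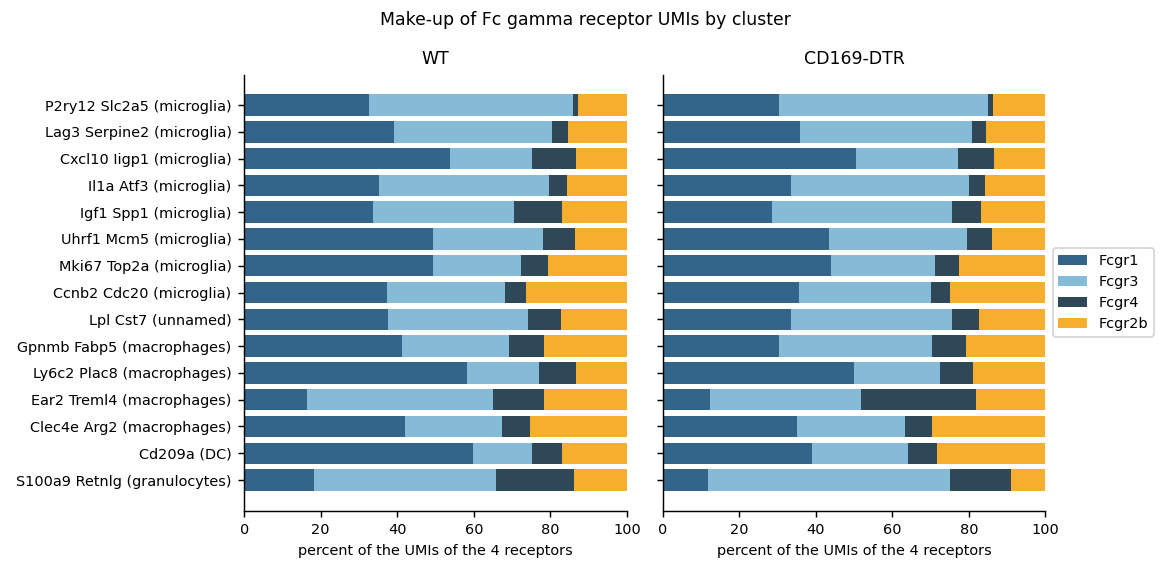
Percent of the UMIs of the 4 Fc gamma receptors that each receptor takes in each cluster, stacked, for WT and CD169-DTR. In macrophages as a class Fcgr1 took 48.7% in WT and 34.6% in CD169-DTR, and Fcgr3 24.1% and 33.6%.

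In microglia Fcgr1 took 41.2% of the receptor UMIs in WT and 36.5% in CD169-DTR, and Fcgr3 37.0% and 42.9%, so the leading receptor of both classes was Fcgr1 in WT, and it was Fcgr3 in CD169-DTR microglia. Single cells mostly held either activating receptors alone or both kinds. Among thinned macrophages, 45.7% in WT and 43.5% in CD169-DTR held a UMI of an activating receptor alone, 42.9% and 44.9% held both kinds, and 5.61% and 4.78% held Fcgr2b alone. Among thinned microglia the shares with both kinds were 49.0% and 47.9%. A cell without a UMI at this depth may still express the gene.

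CD169 itself was used as a label of single cells, since the DT receptor is under the Siglec1 gene. Siglec1 had 706 UMIs (38.2 CPM) in WT and 117 UMIs (11.97 CPM) in CD169-DTR macrophages, and 673 UMIs (18.6 CPM) and 238 UMIs (5.41 CPM) in microglia. CD169-DTR mice have 1 copy of Siglec1 replaced, and the part of this in the lower level was not tested. The background of Siglec1 in T cells was not measured. Within each library, macrophages with a Siglec1 UMI in their full, unthinned counts were compared with those without. The cells were then thinned to 2500 UMIs, which left 505 and 1582 WT cells and 94 and 617 CD169-DTR cells. The label itself was thus not read at equal depth. Where a Siglec1 UMI was present, Fcgr1 was higher, by a log2 ratio of 0.39 (0.30 to 0.49) in WT and of 0.71 (0.47 to 0.93) in the other library. Within the WT Ly6c2 cluster the log2 ratio was 0.15 (0.03 to 0.27), and within the WT Gpnmb cluster 0.41 (0.24 to 0.58). Within the same clusters of CD169-DTR it was 0.21 (-0.10 to 0.51) and 0.36 (-0.06 to 0.76), with intervals across 0. Fcrls was also higher in macrophages with a Siglec1 UMI, by 0.56 (0.32 to 0.80) in WT and 0.71 in CD169-DTR, and Fcgr2b by 0.20 and 0.62. Within the WT Ly6c2 and Gpnmb clusters the intervals of both genes crossed 0. In CD169-DTR those of Fcrls lay above 0 in both clusters, and that of Fcgr2b in the Ly6c2 cluster only. The part of microglial transcripts in these differences was not tested. Fcer1g was even, at -0.01 and 0.01. Over all macrophages Fcgr4 went in opposite directions, at 0.31 (0.07 to 0.53) in WT and, in CD169-DTR, -0.49 (-1.01 to -0.01). Within the Ly6c2 cluster it was at 0.34 (0.02 to 0.65) in WT and, in CD169-DTR, 0.21 (-0.54 to 0.89). Within the Gpnmb cluster it was at 0.21 (-0.19 to 0.60) and -0.73 (-1.99 to 0.32).

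**Figure D5:**
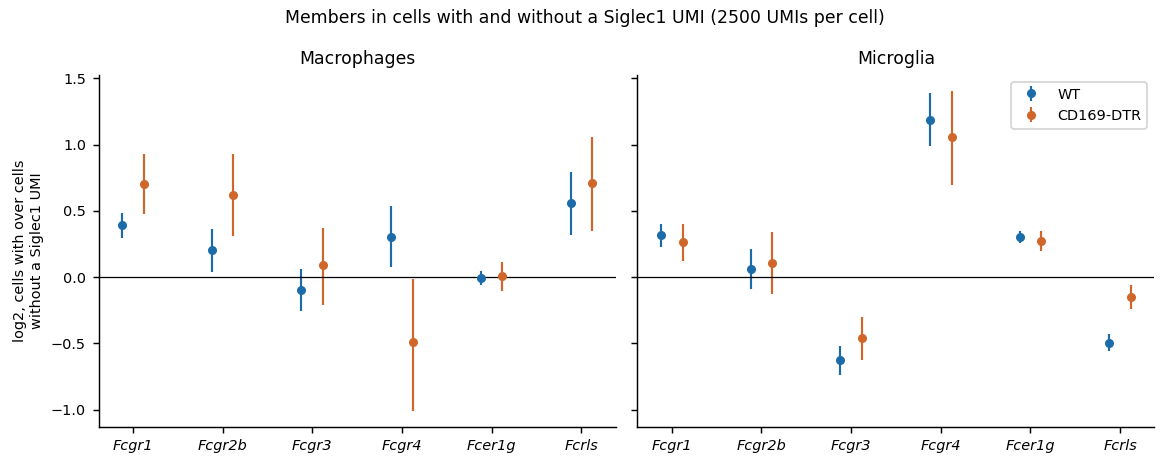
Log2 ratio of each member in cells with over cells without a Siglec1 UMI, in thinned macrophages and microglia of each library, with 95% counting intervals. The Siglec1 UMI was read before thinning. In microglia Fcgr4 is at 1.19 in WT and 1.06 in CD169-DTR, and Fcgr3 is at -0.63 and -0.46.

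In microglia, 507 WT and 195 CD169-DTR cells with a Siglec1 UMI were compared with 3438 and 4379 without. Fcgr4 was higher in the cells with a UMI, by 1.19 (0.99 to 1.39) in WT and, in CD169-DTR, 1.06 (0.69 to 1.41), Fcgr1 by 0.31 and 0.26 and Fcer1g by 0.30 and 0.27, and Fcgr3 was lower, by -0.63 and -0.46. Within the Cxcl10 cluster the log2 ratio of Fcgr4 was 0.17 (-0.16 to 0.49) in WT and, in CD169-DTR, -0.21 (-0.91 to 0.42), so no difference could be seen at this depth among cells of that state. Cells with a Siglec1 UMI were deeper before thinning, with medians of 11053.5 against 6904 UMIs in WT microglia and 12812.5 against 7328 in CD169-DTR microglia. In macrophages the medians were 7465.5 against 7126 and 16008.5 against 11381.

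The genes downstream of the receptors were followed through lists of the pathway. Of all genes tested, 7.61% were called higher and 6.92% lower in WT macrophages, and 2.23% and 1.99% in WT microglia. Tyrobp, the other ITAM chain, had 3039 and 3097 CPM in macrophages and 3339 and 3070 CPM in microglia, a level like that of Fcer1g. Hcst, the chain of the NKG2D receptor, was called lower in WT macrophages, with 39.6 and 59.2 CPM (-0.58). Of 18 kinases and adaptors tested in macrophages, 0 were called higher in WT and 2, Src (-0.55) and Blnk (-0.52), lower, and none of 17 passed in microglia. Lyn, a Src family kinase that phosphorylates both motifs, had 290 and 257 CPM in macrophages, and Prkcd, a protein kinase C, 267 and 225 CPM. Syk, the kinase that reads the ITAM, had 97.1 and 100 CPM. Of 8 phosphatases, Dok adaptors and Cbl ubiquitin ligases none passed in macrophages, where the phosphatase gene Ptpn6 had 275 and 247 CPM. Inpp5d, the gene of SHIP1 that Fcgr2b recruits, had 133 and 137 CPM in macrophages and 259 and 280 CPM in microglia. Of 10 genes of phagocytic actin, 1 was lower in WT macrophages, Gsn (-0.51), while Coro1a (892 and 924 CPM) and Arpc2 (824 CPM in both) had the most UMIs. Of 5 NADPH oxidase genes none passed in macrophages, where Cyba had 2318 and 2335 CPM and Cybb 604 and 594 CPM. The medians of these 4 lists in macrophages lay between -0.05 and 0.11, near the median of all genes.

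Other users of the Fcer1g chain were measured too. In macrophages Clec4e (Mincle) had 289 CPM in WT and 237 CPM in CD169-DTR and Clec4d (MCL) 256 and 185 CPM, and 0 of 4 tested genes of that list passed in either direction. In microglia 2 of 3 were called higher in WT, against 2.23% of all genes tested. They were Clec4n (Dectin-2) at 2.49 against 0.36 CPM and Clec4d at 4.07 against 1.52 CPM, which are low levels. T cells had 3.88 and 3.12 CPM of Clec4n and 6.06 and 1.25 CPM of Clec4d. In WT microglia both genes were thus below the level of the background. Of 12 other immunoglobulin receptors, 3 could be tested in macrophages, of which Trim21, the interferon-induced cytosolic receptor of antibody, was higher by 1.26 and Fcrl1, a B cell gene, was lower at -0.83. Trim21 was also called higher in WT microglia, by 0.64. Of the antibody chains themselves, Ighm had 78.5 and 74.1 CPM in macrophages against 148 and 190 CPM in T cells, and Igkc, the kappa light chain, was the 1 of 2 tested chains called higher in WT macrophages, with 9.31 and 5.02 CPM (0.89) against 14.3 and 3.12 CPM in T cells. Of the IgG heavy chains, Ighg1 had no UMI in macrophages or microglia, and Ighg2b had 4 and 1 UMIs in macrophages and 17 and 29 in microglia.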

How the data were processed

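Cell suspensions of GL261 tumors from 3 pooled WT and 3 pooled CD169-DTR mice were sorted for CD45.2-positive, propidium iodide-negative cells and made into 1 droplet library each. The authors ran Cell Ranger (3.1.0 per the file headers, mm10 per the labels) and deposited the raw UMI counts of all barcodes for every gene, with 101808996 (WT) and 84065489 (CD169-DTR) UMIs. Strand, annotation release and doublet removal by the authors are not given in the sources used here.

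Cells were barcodes of 1000 or more UMIs with a mitochondrial share of up to 17%. The libraries were log-normalised and integrated with Seurat 5.3.0 (R 4.3.3) on 2000 variable features and 50 dimensions, and clustered on 30 components at resolution 1. Any of the 6 members among these features was taken out first. A cluster was named where at least 3 markers of a class had at least 10 UMIs and at least 25% of the level of the highest cluster, and where its 10 leading genes did not go against the name. Clusters led by Lpl and Cst7 and by Csmd3 were left unnamed. Doublets were kept: Scrublet (scanpy 1.11.5) marked 299 WT cells and 1 CD169-DTR cell and so did not work for CD169-DTR, and removing the top 8% of scores is one of the alternatives.

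For each library, UMIs were summed over a class and scaled to CPM. Intervals at 95% are exact Poisson for CPM, exact conditional for ratios of 2 libraries or groups, exact Clopper-Pearson for shares of cells, and a normal approximation of counting error for the ratio of activating to inhibitory receptors. Each group has 1 library, so no test was made, and a gene was called where its log2 ratio (WT over CD169-DTR) lay past 0.5 in either direction and it had at least 100 UMIs in both libraries together. Thinning drew 2500 UMIs per cell without replacement, and cells with fewer were left out. Free RNA was scaled from myeloid genes in lymphocytes and was not subtracted. The genes named are the 6 members, genes from the 3 most like each, and of each pathway list the genes that were called and up to 4 with the most UMIs in macrophages and microglia, of which some are not reported here. Syk and Ighg1 were added after their values were seen. Members and lists were chosen with earlier results of these data known. The intervals were run on simulated counts with known ratios and counting error alone. That check cannot speak to the spread between cells or mice. Promoters are from RefSeq on GRCm38.p6, with 250 bases before each start. Statistics used scipy 1.17.1 and numpy 2.4.6, tables pandas 2.3.3 and plots matplotlib 3.10.9, in Python 3.11.15.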

Additional observations from a re-analysis of the deposited data

How the results depend on the processing

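No paired analysis was possible because each group has 1 library, and with no replicates no library could be left out. Each log2 ratio was recomputed under 18 alternatives, of which 3 were chosen after seeing the data (the unnamed clusters counted among microglia, macrophages without a UMI of 6 microglial genes, and macrophages without the Ear2 cluster). No ratio of receptors and no median over the members changed direction. Allowing the members among the clustering features changed nothing.

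The macrophage ratio of activating to inhibitory receptors (log2 0.28) was 0.21 with the same cluster weights in both libraries and 0.47 without the Gpnmb cluster, which holds border-associated markers. The microglial ratio (0.06) was 0.0053 in cells of 5000 to 10000 UMIs. Macrophages over microglia in WT (-0.25) was -0.15 in cells of 5000 to 10000 UMIs, -0.36 with equal weight per cell, -0.33 in macrophages without microglial UMIs, -0.31 with the same cluster weights and -0.077 without the Gpnmb cluster. In CD169-DTR (-0.48) it was -0.56 with equal weight per cell. The median over the members in macrophages (-0.13) was -0.29 with equal weight per cell, -0.21 with the same cluster weights and -0.23 without the Gpnmb cluster, and in microglia (0.13) it was 0.18 with median-ratio scaling and 0.10 with the same cluster weights.

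Fcgr1 in macrophages stayed past 0.5 in 17 of 18 alternatives, between 0.23 and 0.89, and was below it with the same cluster weights. Fcgr4 in microglia did so in 17 of 18, with 0.37 under the same cluster weights. Fcrls in macrophages ranged from -0.07 without microglial UMIs to -1.84 with the highest doublet scores removed. Fcgr3 in macrophages ranged from -0.48 to -0.17, the latter in cells of 5000 to 10000 UMIs. Fcgr4 in macrophages was past 0.5 in 2 of 18 alternatives and changed sign, from -0.72 in cells of 5000 to 10000 UMIs to 0.20 without the Ear2 cluster, and Fcer1g in macrophages kept its sign in 15 of 18. The cause of these shifts was not tested.

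With a minimum of 20 or 500 UMIs per gene in place of 100, the genes called higher and lower in WT numbered 1231 and 1202 or 438 and 210 in macrophages (710 and 646), 621 and 727 or 138 and 51 in microglia (255 and 228), 1238 and 1358 or 298 and 158 in DC (657 and 632), and 780 and 1401 or 85 and 44 in granulocytes (296 and 297), since other genes were tested. Depth limits the rarer classes: a count of 0 in CD169-DTR granulocytes still allows 3.33 CPM.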

Other observations

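Among DC, Fcgr1 followed subset. The cluster led by Cd209a, a gene of monocyte-derived and conventional type 2 DC, had 562 CPM in WT and 393 CPM in CD169-DTR, the cluster led by Xcr1 and Clec9a, genes of cross-presenting DC, had 206 and 115 CPM, and the cluster led by Ccr7 and Ccl22, genes of migratory DC, had 116 and 183 CPM. Over the DC class Fcgr1 was higher in WT, and the Ccr7 cluster, with 147 WT and 14 CD169-DTR cells, went the other way.

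Mast cells and basophils, with 26 WT and 9 CD169-DTR cells, held Fcer1g at 2533 and 1705 CPM and Fcgr3 at 122 and 294 CPM, from 46 and 24 UMIs, against 60.3 and 39.3 CPM of Fcgr3 in T cells. Both genes belong to the receptors these cells are known for, the IgE receptor and CD16.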
